A study of Arabidopsis thaliana with 24 samples.

Results

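Root tips of the gun1-101 mutant and of wild-type Arabidopsis thaliana were compared after transfer of seedlings to spectinomycin. The comparison rests on 6 of the 24 libraries of the series, 3 of gun1-101 and 3 of wild type (WT, genotype Col), and covers every gene tested, 19567 of the 24497 in the table. The spectinomycin groups were seedlings of about 5 days moved to medium with 10 mg/L spectinomycin, for about 16 h in 1 description of the series and about 24 h in another. The control groups of the same genotypes, also 3 libraries each, carry the treatment label control. Each library was made from poly(A) RNA of 0.5 cm root tips and so holds a mixture of cell types in which fewer cells of a type and less RNA per cell cannot be told apart. The gun1-101 seedlings stand for 1 mutant allele of GUN1. The other libraries of the series come from the mutant nac103-11 and from NAC103-OX, a line that expresses NAC103-GFP from the 35S promoter.

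GUN1 (GENOMES UNCOUPLED 1) is a pentatricopeptide repeat protein of the plastid, best known for mutants in which nuclear genes for photosynthesis stay active when plastid function is blocked. Spectinomycin binds the plastid ribosome and stops translation inside the plastid, whose own genome encodes part of the photosynthetic and gene expression machinery. Root tip plastids are small and not photosynthetic, but they make fatty acids, tetrapyrroles and amino acids. NAC103 is a transcription factor known from the response to misfolded proteins in the endoplasmic reticulum and from the DNA damage response.

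The gun1-101 libraries on spectinomycin held 14303942 to 15777905 counts and the WT libraries 14568694 to 17060225, within the range of 13012580 to 17411876 over the whole series. Levels are given in CPM, a gene's share of its library's counts on a scale common to all libraries, corrected by the trimmed mean of M values (TMM). GUN1 (AT2G31400) was examined first. It had 77.7, 77.3 and 80.8 CPM in gun1-101 on spectinomycin, against 140.3, 137.6 and 144.7 CPM in WT. All gun1-101 values lay below all WT values, with a log2 fold change of -0.84 ± 0.05 (SE, n = 3 each; edgeR quasi-likelihood test, adjusted p = 2.16e-19). A log2 fold change of 1 is a doubling, and the adjusted p is the Benjamini-Hochberg value over all genes tested. GUN1 mRNA was thus reduced in the mutant libraries and still detected. NAC103 (AT5G64060) had 0.478, 0.274 and 0.676 CPM in gun1-101, against 0.568, 0.515 and 0.591 CPM in WT. Its values overlapped between genotypes, at a log2 fold change of -0.24 ± 0.37 (SE; edgeR, adjusted p = 0.629). The 3 libraries of a group are described as biological replicates, without saying whether they came from separate plates or seedling pools, so the p-values measure the spread between these samples. Since the batch label has a separate value for each group, group and batch cannot be told apart here.

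Across the transcriptome 11152 genes passed an adjusted p of 0.05 on spectinomycin, 57% of those tested. Of these, 5413 (27.7%) were higher and 5739 (29.3%) lower in gun1-101. The rises were much larger than the falls. At least 2-fold rises numbered 1671 (8.54%) and at least 2-fold falls 414 (2.12%). At least 8-fold rises numbered 436, while 1 gene fell by as much, and 108 genes rose at least 64-fold. The median log2 fold change over all genes was -0.05, which is the value to set beside the medians of gene lists below. The split of calls depended on scaling: with raw library sizes in place of TMM, 3404 genes were higher and 10735 lower, so 24.1% of calls were higher instead of 48.5%, and the median of all genes moved to -0.28. Small differences near that shift therefore depend on the scaling, while the large rises described next do not. Most genes named below were chosen by their p or fold change, or after their values were seen. Lack of overlap between their libraries is therefore a description and not separate support.

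The genes that make camalexin and indole carbonyl nitriles stood high in gun1-101 and low in WT. These tryptophan-derived defence compounds are built from indole-3-acetaldoxime, which the cytochromes P450 CYP79B2 and CYP79B3 produce. All 13 members of the list rose, with a median log2 fold change of 6.30. CYP79B2 (AT4G39950) had 1053, 1031 and 1026 CPM in gun1-101, against 68.0, 77.6 and 73.0 CPM in WT, a log2 fold change of 3.83 ± 0.06 (SE; edgeR, adjusted p = 5.24e-41). The mutant libraries were all far above the WT libraries. CYP71A12 (AT2G30750), which turns the oxime into a nitrile, had 1910, 1930 and 1965 CPM in gun1-101, against 4.99, 4.86 and 5.00 CPM in WT, a log2 fold change of 8.61 ± 0.08 (SE; edgeR, adjusted p = 4.84e-49). No WT library came near a mutant library. Its close relatives CYP71A13 and CYP71A18 could share reads with it and are less certain. CYP71A13 had 25.7 to 27.7 CPM in gun1-101 and 0 to 0.126 CPM in WT. CYP71A18 had 2188 reads in the 3 gun1-101 libraries and 3 reads in the 3 WT libraries, a ratio of 890.1 with a 95% counting interval of 304.2 to 4320.

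The last steps of these routes moved the same way. PAD3 (AT3G26830), which closes the camalexin ring, had 173.3, 161.2 and 166.9 CPM in gun1-101, against 1.89, 2.46 and 1.99 CPM in WT, a log2 fold change of 6.30 ± 0.13 (SE; edgeR, adjusted p = 2.08e-24). AT1G26380, an FAD-binding berberine-type oxidase of the nitrile branch, had 1919, 2021 and 1873 CPM in gun1-101, against 5.62, 7.09 and 7.95 CPM in WT. CYP82C2 (AT4G31970), which hydroxylates the indole carbonyl nitrile, had 316.1, 313.5 and 302.4 CPM in gun1-101, against 0.189, 0.0572 and 0.0537 CPM in WT. In all of these genes the WT libraries were near the limit of detection or a small fraction of the mutant level. The transporter PEN3 (ABCG36, AT1G59870), which exports such indolic compounds, started from a higher WT level. It had 3575, 3793 and 3608 CPM in gun1-101, against 645.5, 682.4 and 713.5 CPM in WT, a log2 fold change of 2.43 (edgeR, adjusted p = 2.77e-37).

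**Figure D1:**
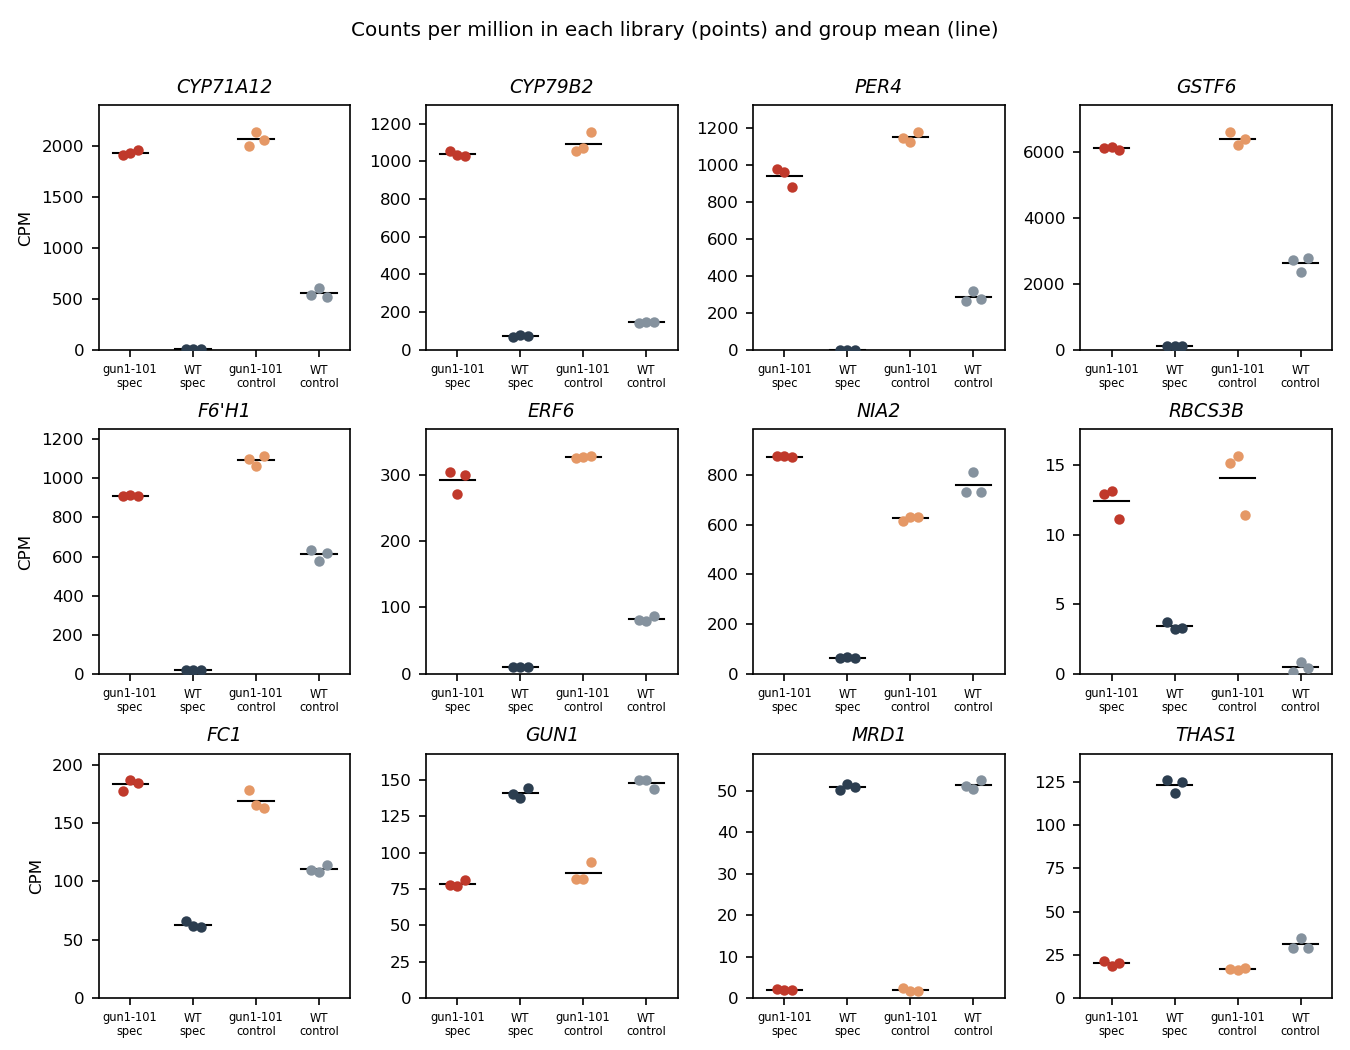
CPM (vertical axis, linear, from 0, TMM-scaled) of 12 genes in each library of gun1-101 and WT on spectinomycin (spec) and on control medium; points are libraries and the line is the mean of 3. CYP71A12, CYP79B2, PER4, GSTF6, F6'H1, ERF6, NIA2, RBCS3B and FC1 were higher in all 3 gun1-101 than in all 3 WT libraries on spectinomycin, and GUN1, MRD1 and THAS1 were lower.

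Indole glucosinolates, sulfur-containing defence compounds from the same oxime, mostly rose. Of 15 genes 12 rose and 3 fell, with a median of 1.58. CYP81F2 (AT5G57220), which opens the 4-methoxy branch used in defence against microbes, had 1302, 1237 and 1273 CPM in gun1-101, against 5.24, 5.55 and 5.70 CPM in WT, a log2 fold change of 7.85 ± 0.09 (SE; edgeR, adjusted p = 8.99e-38). The methyltransferase of that branch, IGMT2, had 1197, 1128 and 1207 CPM in gun1-101, against 15.5, 14.5 and 13.3 CPM in WT; it has the close copy IGMT1, which rose by 1.40. The regulator MYB51 had 667.3, 651.8 and 675.0 CPM in gun1-101, against 42.5, 40.8 and 41.1 CPM in WT. Its relative MYB122 had 90.2 to 93.4 CPM in gun1-101 and 2.02 to 2.63 CPM in WT. Both regulators were higher in every mutant library. The core enzymes rose less, among them SOT16 (2.14), CYP83B1 (1.62), SUR1 (1.59) and UGT74B1 (1.55), as did the myrosinase PEN2 (2.00).

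The 3 genes that fell were CYP81F4 and IGMT5, of the 1-methoxy branch, and the regulator MYB34. CYP81F4 had 708.4, 671.9 and 708.7 CPM in gun1-101, against 1285, 1322 and 1329 CPM in WT, a log2 fold change of -0.91 ± 0.05 (SE; edgeR, adjusted p = 7.4e-22). IGMT5 had 73.3, 68.4 and 67.4 CPM in gun1-101, against 188.6, 193.8 and 184.3 CPM in WT. MYB34 had 21.9, 22.4 and 19.1 CPM in gun1-101, against 48.9, 45.7 and 47.4 CPM in WT. None of these overlapped between genotypes. In the list of aliphatic glucosinolates, made from methionine, 1 of 14 members tested rose and 7 fell, with a median of -0.25. The member that rose was SOT17, a sulfotransferase of the shared core pathway, by 2.77. IMS2, which elongates the methionine chain, fell by 0.59, and the plastid transporter BAT5 fell by 1.37.

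Among the 15 named genes with the largest rises were several of defence and lipid turnover. PER4 (AT1G14540), a class III peroxidase, had 976.8, 960.8 and 881.4 CPM in gun1-101, against 0.821, 1.37 and 1.61 CPM in WT, a log2 fold change of 9.50 ± 0.10 (SE; edgeR, adjusted p = 4.45e-40). GLIP1, a GDSL lipase of ethylene-linked immunity, had 86.7 to 92.6 CPM in gun1-101 and 0.0572 to 0.253 CPM in WT. PLA2A, a patatin-type lipid acyl hydrolase, had 847.2, 857.3 and 948.7 CPM in gun1-101, against 4.36, 4.58 and 5.59 CPM in WT. The glutathione transferase GSTU12 had 168.3, 184.5 and 186.7 CPM in gun1-101, against 1.01, 0.801 and 0.806 CPM in WT. MPK11, a MAP kinase of pattern-triggered immunity, had 21.4 to 23.5 CPM in gun1-101 and 0.0572 to 0.253 CPM in WT. Each of these was separated by an order of magnitude or more between genotypes.

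Some of the largest rises started from WT libraries with almost no reads, and only a bound or a counting interval can be given. Germin-like GLP6 had 150 reads in gun1-101 and 0 in WT, at least 61.0-fold higher when WT is set to a floor of 3 reads over the group. AT4G16820, a lipase of the phospholipase A family, had 136 reads in gun1-101 and 0 in WT, at least 55.3-fold higher. The beta-glucosidase BGLU27 had 1598 reads in gun1-101 and 3 in WT, a ratio of 650.1 (95% counting interval 222.1 to 3156). WRKY55 had 454 reads in gun1-101 and 2 in WT, a ratio of 277 (76.3 to 2295), and PP2-B13 had 591 in gun1-101 and 3 in WT, a ratio of 240.4 (81.9 to 1169). Of the genes without a symbol, AT5G52670, of a copper transport family, had 2014 reads in gun1-101 and 0 in WT, at least 819.3-fold higher. AT4G37290 had 1270 reads in gun1-101 and 0 in WT, at least 516.7-fold higher, and the subtilase gene AT4G10530 had 488 in gun1-101 and 0 in WT, at least 198.5-fold higher. AT1G14550, a peroxidase gene next to PER4 by its number, had 182.3 to 199.0 CPM in gun1-101 and 0.0572 to 0.161 CPM in WT. Counting error is all that these floors and intervals cover.

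Stress transcription factors rose almost without exception: 28 of 30 were higher, 2 lower, and the median was 2.39. ERF6 (AT4G17490), an ethylene response factor, had 304.4, 270.4 and 299.8 CPM in gun1-101, against 10.9, 10.9 and 10.4 CPM in WT, a log2 fold change of 4.77 ± 0.07 (SE; edgeR, adjusted p = 2.43e-42). WRKY33, a direct activator of camalexin genes, had 508.0, 538.1 and 512.8 CPM in gun1-101, against 34.3, 40.6 and 39.1 CPM in WT. WRKY53, known from senescence and defence, rose by 4.23, and the related factors ERF105 and ERF5 rose by 5.22 and 2.76. The zinc-finger repressor STZ (ZAT10) had 565.4, 472.0 and 542.0 CPM in gun1-101, against 19.1, 18.4 and 18.5 CPM in WT. In each of these genes the lowest mutant library stood above the highest WT library, which the way they were chosen favours. The 2 members that fell were ORA59 (-1.18), which joins jasmonate and ethylene signals, and RD26 (-0.13).

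Hormone genes were mixed. Of 15 jasmonate and salicylate genes tested 10 rose and 2 fell, with a median of 0.48; when any 1 of the 6 libraries was left out, 17 members passed the filter on low counts and the median lay between 0.84 and 0.90. JAZ1, a repressor induced by jasmonate, had 250.5, 260.0 and 254.6 CPM in gun1-101, against 43.5, 48.6 and 45.7 CPM in WT. The lipoxygenases LOX3 and LOX4, which start jasmonate synthesis, rose by 5.92 and 3.41. The vegetative storage protein genes VSP1 and VSP2, jasmonate-responsive in leaves, were the 2 that fell: VSP2 had 4.16, 3.98 and 4.06 CPM in gun1-101, against 12.5, 15.5 and 14.1 CPM in WT. The VSP2 libraries of the genotypes did not overlap. Of 13 ethylene genes 9 rose and 1 fell, with a median of 0.28. With raw library sizes 6 rose, 4 fell and the median was 0.05, while relative to all genes it was 0.33 under either scaling. ACS6, which makes the ethylene precursor, had 206.4, 189.9 and 196.8 CPM in gun1-101, against 9.79, 7.38 and 9.03 CPM in WT, a log2 fold change of 4.50 ± 0.07 (SE; edgeR, adjusted p = 6.09e-41). ACS7 rose by 3.00, EFE, which completes ethylene synthesis, by 1.57 and the response gene ERF1 by 1.29.

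**Figure D2:**
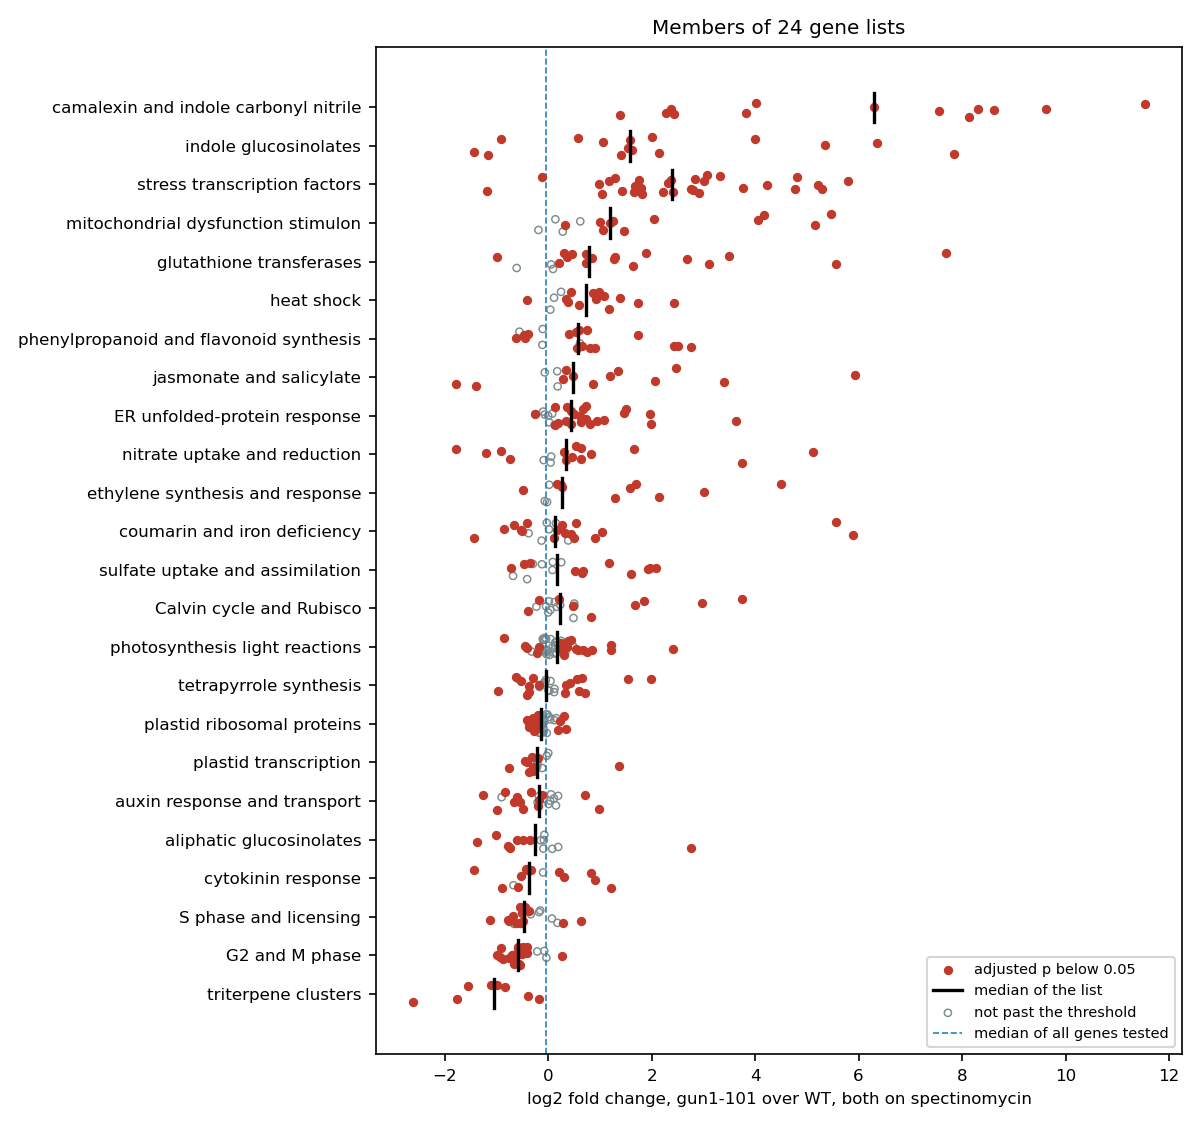
Members of 24 gene lists (rows) by log2 fold change, gun1-101 over WT on spectinomycin (horizontal axis); filled points passed an adjusted p of 0.05, open points did not, black bars are list medians and the dashed line is the median of all genes, -0.05. Camalexin genes have the highest median, 6.30, and triterpene cluster genes the lowest, -1.04.

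Genes of the mitochondrial dysfunction stimulon, induced when respiration is impaired, rose in 11 of 15 members tested and fell in none, with a median of 1.19. CYP81D8 (AT4G37370) had 71.7, 69.1 and 72.2 CPM in gun1-101, against 3.66, 4.18 and 3.87 CPM in WT, a log2 fold change of 4.18 ± 0.10 (SE; edgeR, adjusted p = 4.78e-31). The dicarboxylate carrier DIC2 had 172.5, 167.2 and 175.9 CPM in gun1-101, against 3.66, 3.89 and 4.03 CPM in WT. The alternative oxidase AOX1D had 25.1, 26.3 and 26.2 CPM in gun1-101, against 0.821, 0.973 and 0.376 CPM in WT. The AAA ATPase BCS1 rose by 4.05, whereas AOX1A, the marker gene of the response, had 99.2, 107.2 and 101.7 CPM in gun1-101, against 52.3, 49.3 and 52.9 CPM in WT. The rise of AOX1A was about 2-fold (1.00 on the log2 scale), smaller than that of the other 4.

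The unfolded-protein response of the endoplasmic reticulum rose in 21 of 29 members tested and fell in 1, with a median of 0.44. The transcription factor BZIP60 (AT1G42990) had 145.4, 143.4 and 135.6 CPM in gun1-101, against 38.2, 34.2 and 34.7 CPM in WT, a log2 fold change of 1.99 ± 0.06 (SE; edgeR, adjusted p = 1.08e-30). The oxidase ERO1 had 21.6, 20.4 and 19.1 CPM in gun1-101, against 5.49, 4.81 and 5.32 CPM in WT. The membrane-bound factor NAC062 rose by 1.46 and the disulfide isomerase PDIL1-2 by 0.94. The chaperone BIP3 rose by 3.64, and the only member that fell was the factor BZIP17 (-0.26). NAC103, a known target of BZIP60, was at the low levels given above in both genotypes.

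Glutathione transferases, which detoxify reactive compounds, rose in 16 of 20 members tested and fell in 1, with a median of 0.80. GSTF6 (AT1G02930) had 6129, 6167 and 6060 CPM in gun1-101, against 128.0, 129.1 and 130.0 CPM in WT, a log2 fold change of 5.57 ± 0.06 (SE; edgeR, adjusted p = 1.12e-46). Its close copy GSTF7, with which it may share reads, had 7139, 7185 and 6875 CPM in gun1-101, against 600.5, 651.7 and 633.5 CPM in WT. GSTU20 was the member that fell (-0.99). Of 16 heat shock genes tested 12 rose and 1 fell, with a median of 0.72. HSF4, a heat shock factor of class B, had 423.4, 439.4 and 425.4 CPM in gun1-101, against 170.3, 165.2 and 159.6 CPM in WT. Hsp70-2 rose by 1.74 and HSP90.1 by 1.18.

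Of 20 genes of phenylpropanoid and flavonoid synthesis tested 12 rose and 4 fell, with a median of 0.58. PAL1 (AT2G37040), which makes cinnamate from phenylalanine, had 907.4, 851.0 and 830.5 CPM in gun1-101, against 124.2, 121.3 and 135.4 CPM in WT, a log2 fold change of 2.76 ± 0.05 (SE; edgeR, adjusted p = 8.78e-39). C4H, the next enzyme, had 1306, 1244 and 1257 CPM in gun1-101, against 387.0, 372.6 and 378.9 CPM in WT, and 4CL1 and PAL2 rose by 2.44 and 2.50. The 4 members that fell were TT4 (-0.45), F3H (-0.47) and FLS1 (-0.63), enzymes of flavonol synthesis, and their activator MYB12 (-0.39).

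Coumarin and iron deficiency genes were divided, with 11 of 24 members tested higher, 6 lower and a median of 0.14. F6'H1 (AT3G13610), which makes the coumarin scopoletin's precursor, had 910.9, 914.2 and 911.7 CPM in gun1-101, against 18.1, 20.5 and 19.4 CPM in WT, a log2 fold change of 5.56 ± 0.06 (SE; edgeR, adjusted p = 1.12e-46). AT1G28680, the next gene of that route, rose by 1.04, and the iron regulators BTS and bHLH39 by 0.90 and 0.53. IRT1, the main iron importer of roots, fell by 1.43. With raw library sizes the list's median was -0.09, with 6 members higher and 10 lower; relative to the median of all genes it was 0.19 under either scaling.

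Nitrate reduction differed sharply between the genotypes. NIA2 (AT1G37130), the main nitrate reductase, had 876.6, 873.7 and 869.7 CPM in gun1-101, against 62.4, 67.5 and 65.0 CPM in WT, a log2 fold change of 3.75 ± 0.05 (SE; edgeR, adjusted p = 1.1e-42). NIA1, the second reductase gene, had 29.3, 30.9 and 30.5 CPM in gun1-101, against 1.20, 0.915 and 0.537 CPM in WT, a log2 fold change of 5.11 ± 0.22 (SE; edgeR, adjusted p = 9.26e-16). The nitrate-responsive repressor HRS1 rose by 1.67 and WR3, a partner of nitrate transporters, by 0.83. The transporter and nitrate sensor NRT1.1 went the other way, with 29.8, 30.9 and 30.5 CPM in gun1-101, against 69.8, 69.1 and 71.9 CPM in WT. Of the 17 members tested 10 rose and 4 fell, with a median of 0.36.

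Sulfate genes were mixed. APS1, which activates sulfate, had 983.4, 1028 and 1010 CPM in gun1-101, against 332.7, 336.6 and 331.3 CPM in WT, and the reductase APR1, the sulfurylase APS3 and the serine acetyltransferase SERAT2;1 rose by 1.97, 2.08 and 1.17. In all, 8 of 18 members rose and 3 fell, with a median of 0.17, or -0.05 with raw library sizes (0.22 relative to all genes under either). Phosphate starvation genes fell in 5 of 13 members tested and rose in 2, with a median of -0.12, or 8 and 1 with raw library sizes. The phosphate transporters PHT1;4 and PHT1;1 fell by 0.69 and 0.43 and the sensor protein gene SPX1 by 0.39, while the phosphatase gene PS2 rose by 1.62.

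The nuclear genes of photosynthesis, the classic readout of gun mutants, differed much less than the stress genes. Of 51 light-reaction genes tested 18 rose, 5 fell and 28 did not pass, with a median of 0.17; with raw library sizes 8 rose, 13 fell and the median was -0.06, and relative to all genes it was 0.22 under either scaling. The count of 5 that fell was 3 when gun1-101 replicate 2 or WT replicate 1 was left out. PSAL, a photosystem I subunit, had 30.2, 34.8 and 31.1 CPM in gun1-101, against 18.9, 19.6 and 18.5 CPM in WT, a log2 fold change of 0.75 ± 0.10 (SE; edgeR, adjusted p = 1.93e-08). PSBO2, of the oxygen-evolving complex, went the other way, with 23.4, 21.5 and 22.5 CPM in gun1-101, against 41.5, 38.6 and 41.4 CPM in WT, a log2 fold change of -0.85 ± 0.08 (SE; edgeR, adjusted p = 2.76e-11). The antenna gene LHCB2.3 had 0.956, 1.303 and 1.58 CPM in gun1-101, against 0.316, 0.286 and 0.108 CPM in WT, and ATPC1, of the plastid ATP synthase, fell by 0.45. These 4 genes were named for the smallest p among called members, and their direction was not shared.

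In the Calvin cycle list 7 of 20 genes rose and 2 fell, with a median of 0.22, which was 0.00 with raw library sizes, under which 4 rose and 6 fell; relative to all genes it was 0.27 under either. Beside CA1, the largest rises were in the B-type small subunits of Rubisco, near-identical genes that may share reads. RBCS3B had 12.9, 13.2 and 11.1 CPM in gun1-101, against 3.73, 3.26 and 3.28 CPM in WT, a log2 fold change of 1.86 ± 0.15 (SE; edgeR, adjusted p = 1.06e-14). RBCS1B had 6.49, 5.76 and 5.93 CPM in gun1-101, against 2.53, 1.72 and 1.51 CPM in WT. RBCS2B had 5.33, 5.07 and 4.81 CPM in gun1-101, against 0.821, 0.286 and 0.806 CPM in WT. All 3 were higher in every mutant library, whereas RBCS1A had a log2 fold change of 0.23 and did not pass. The carbonic anhydrase gene CA1 had 1.84, 1.99 and 1.88 CPM in gun1-101, against 0.189, 0.0572 and 0.161 CPM in WT. Of 5 leaf markers tested 2 rose and none fell (1 and none with raw library sizes). The summed level of all 9 leaf markers in the table was 378.3 to 410.9 CPM in gun1-101 and 332.7 to 352.9 CPM in WT; the stomatal marker FMA was at 0 in all of these libraries. Most of that sum is CAB1, RBCS1A and RCA, themselves photosynthesis genes, and the part of leaf RNA in the photosynthesis values was not tested. The sums are on the TMM scale, and a difference of this size depends on the scaling.

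**Figure D3:**
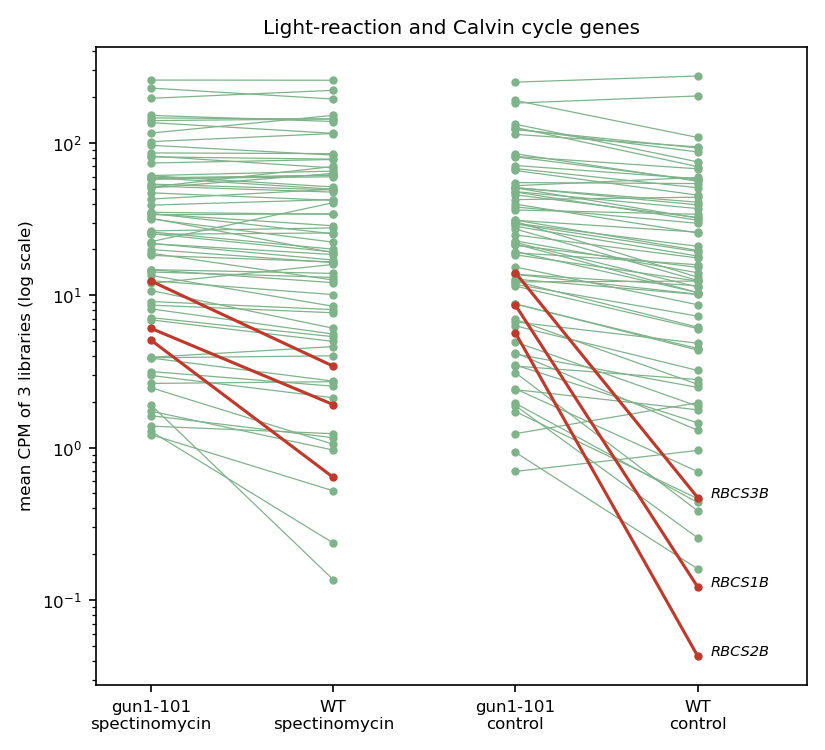
Mean CPM of 3 libraries (vertical axis, log scale) for light-reaction and Calvin cycle genes in gun1-101 and WT on spectinomycin and on control medium; each line joins 1 gene between genotypes on a medium. RBCS1B, RBCS2B and RBCS3B (red) were higher in gun1-101 on both media, and lower in WT on control medium than in WT on spectinomycin.

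Tetrapyrrole synthesis, which supplies heme and chlorophyll and is tied to GUN1 through the other gun genes, had members that rose and members that fell, in shares near those of all genes tested (27.7% higher and 29.3% lower). Of 29 genes tested 9 rose and 8 fell, with a median of -0.04; with raw library sizes 8 rose and 16 fell. FC1 (AT5G26030), the ferrochelatase linked to stress heme, had 177.5, 187.1 and 184.5 CPM in gun1-101, against 65.8, 61.4 and 61.0 CPM in WT, a log2 fold change of 1.55 ± 0.05 (SE; edgeR, adjusted p = 2.91e-28). HEMA2, which starts the pathway in roots, had 83.8, 79.3 and 84.6 CPM in gun1-101, against 22.5, 22.1 and 17.9 CPM in WT. GSA1 and HEMB1, of the next common steps, rose by 0.71 and 0.59. Among the 8 that fell were genes of the chlorophyll branch, CHLI1 (-0.41), POR C (-0.97), G4 (-0.52) and GUN5 (-0.17), and the second ferrochelatase FC2 (-0.37).

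Plastid ribosomal protein genes fell in 11 of 37 members, a share near the 29.3% of all genes called lower, and rose in 4, or 2 without WT replicate 1. With raw library sizes 30 fell and 0 rose. The median of the list with TMM was -0.14, or -0.09 relative to all genes. Examples are emb1473 (-0.37), RPL4 (-0.41) and AT5G65220 (-0.33), which fell, and AT3G13120 (0.30), which rose; with raw library sizes AT3G13120 was at 0.08 (edgeR, adjusted p = 0.267). Plastid transcription genes fell in 8 of 15 members and rose in 1, with a median of -0.21, or -0.16 relative to all genes, and 5 fell when gun1-101 replicate 1 or 2 was left out. With raw library sizes 14 fell and 1 rose. FSD3, a superoxide dismutase of the plastid nucleoid, fell by 0.45, PTAC3 by 0.42, and AT5G15700, of the phage-type RNA polymerase family, by 0.37. The sigma factor SIG4 rose by 1.38 from a low level, 1.16 to 1.65 CPM in gun1-101 and 0.400 to 0.645 CPM in WT.

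The other plastid lists had members called in both directions and medians from -0.105 to 0.03. Of all genes tested 27.7% were higher and 29.3% lower. Plastid chaperones and proteases rose in 5 and fell in 4 of 19 members tested, or 2 and 14 with raw library sizes. The chaperone cpHsc70-2 and the protease regulator ERD1 rose by 0.74 and 0.73, and the chaperonin CPN60A and the HSP90 CR88 fell by 0.41 and 0.27. Of 16 protein import genes 2 rose and 6 fell, or 1 and 12 with raw library sizes. Among those called were Toc90 (0.40), OEP80 (-0.50), TOC34 (-0.38) and Tic20-I (-0.36). Of 20 plastid signalling genes tested 4 rose and 6 fell, or 3 and 12 with raw library sizes. SAL1, the phosphatase of the PAP retrograde signal, was at 1.14 and TED4, a heme oxygenase, at 0.35. GUN1 had the lowest value of that list, -0.84. Of 12 plastid fatty acid genes 3 rose and 6 fell, or 2 and 9 with raw library sizes. Those called included KASI (0.41), FATB (0.33), FaTA (-0.47) and CAC2 (-0.28).

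The largest fall among called genes belonged to MRD1 (AT1G53480), named for its response in a methionine over-accumulating mutant. It had 2.05, 1.92 and 1.80 CPM in gun1-101, against 50.2, 51.7 and 51.1 CPM in WT, a log2 fold change of -4.72 ± 0.10 (SE; edgeR, adjusted p = 6.64e-35). HEI10 (AT1G53490), a meiotic crossover protein, had 3.96, 3.98 and 3.91 CPM in gun1-101, against 31.3, 28.5 and 31.5 CPM in WT, a log2 fold change of -2.94 ± 0.11 (SE; edgeR, adjusted p = 1e-26). The mutant libraries lay far below WT in both. MRD1 and HEI10 are adjacent protein-coding genes on chromosome 1 in the reference annotation, while their next neighbours MSL4 and MUM4 were at -0.46 and 0.56, and GUN1 is on chromosome 2. The level of MRD1 in nac103-11 and NAC103-OX on spectinomycin was 49.0 and 50.4 CPM, and that of HEI10 24.9 and 22.8 CPM. On control medium MRD1 had 1.96 CPM in gun1-101 and 51.5 CPM in WT (means, n = 3 each), a log2 fold change of -4.69, and the difference between media was -0.03 (edgeR, adjusted p = 0.939).

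Triterpene cluster genes, which make thalianol, marneral and arabidiol in roots, fell in all 8 members tested, with a median of -1.04. With RLE size factors (the scaling of DESeq2) 7 fell. Thalianol synthase THAS1 (AT5G48010) had 21.6, 18.7 and 19.97 CPM in gun1-101, against 126.3, 118.7 and 125.0 CPM in WT, a log2 fold change of -2.62 ± 0.06 (SE; edgeR, adjusted p = 2.11e-33). Its cluster partners CYP708A2 and CYP705A5, which modify thalianol, fell by 1.77 and 1.55. CYP708A2 had 46.0, 50.3 and 44.8 CPM in gun1-101, against 164.8, 155.8 and 159.4 CPM in WT. The marneral genes MRN1 and CYP71A16 fell by 0.82 and 0.99 and CYP705A12 by 1.10, and the arabidiol genes PEN1 and CYP705A1 fell least, by 0.39 and 0.18. The thalianol genes thus fell most, and the small falls of the arabidiol genes are less certain.

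Other large falls had lower levels. CYP710A2, a sterol desaturase, had 2.59, 2.74 and 2.55 CPM in gun1-101, against 12.9, 14.0 and 13.6 CPM in WT. The defensin-like gene AT4G22230 had 4.10, 4.25 and 3.83 CPM in gun1-101, against 25.3, 22.4 and 19.8 CPM in WT. PPCK2, a kinase of phosphoenolpyruvate carboxylase, had 7.41 to 8.49 CPM in gun1-101 and 26.1 to 31.2 CPM in WT, and the sesquiterpene synthase gene TPS12 had 4.37 to 4.59 CPM in gun1-101 and 15.2 to 16.2 CPM in WT. The vascular regulator WOX4, the aquaporin PIP2;5, the cell death gene GRI, BGLU7, UGT72B3, AGD11 and the pectin lyase-like gene AT1G05660 also fell, by 1.75 to 2.77, and were at 1.43 CPM or less in every gun1-101 library. Lack of overlap between genotypes was a condition for naming these falls.

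Cell division genes were lower in gun1-101. Of 23 genes of the G2 and M phases 19 fell and 1 rose, with a median of -0.58. The B-type cyclin CYC1BAT (AT5G06150) had 5.12, 5.49 and 4.21 CPM in gun1-101, against 10.2, 9.50 and 9.94 CPM in WT, a log2 fold change of -0.99 ± 0.13 (SE; edgeR, adjusted p = 1.14e-08). CYCB1;4 had 6.42, 6.31 and 5.86 CPM in gun1-101, against 9.72, 12.3 and 12.7 CPM in WT, and the anaphase activators CDC20.2 and CDC20.1 fell by 0.68 and 0.53. PC-MYB1, a MYB activator of mitotic genes, was the 1 that rose (0.27). Of 22 genes of S phase and replication licensing 14 fell and 2 rose, with a median of -0.46. MCM3, of the replicative helicase, fell by 0.77, the ribonucleotide reductase RNR1 by 0.51 and the G1 cyclin CYCD3;1 by 0.54. The 2 that rose were the transcription factors E2F1 (0.64) and ATE2F2 (0.28).

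**Figure D4:**
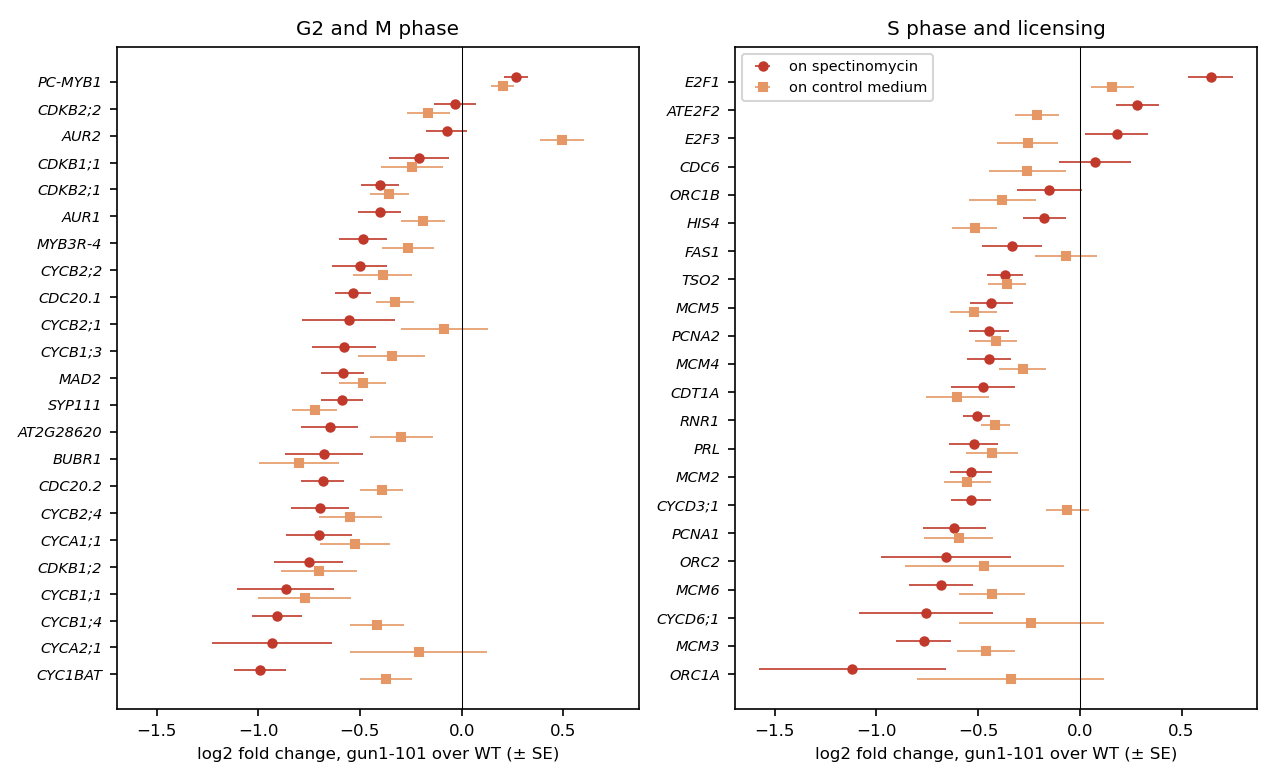
Log2 fold change, gun1-101 over WT (horizontal axis, ± SE), of genes of the G2 and M phases (left panel) and of S phase and licensing (right panel), on spectinomycin (circles) and on control medium (squares). Most values lie below 0 on both media; PC-MYB1, E2F1 and ATE2F2 were higher in gun1-101 on spectinomycin.

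In the DNA damage list, which holds CDK inhibitors and repair genes, 7 of 22 members tested fell, a share near the 29.3% of all genes. In that list 3 rose, and the median was -0.20, while with raw library sizes 12 fell and 2 rose. SIM, an inhibitor of mitotic CDKs, had 61.2 to 67.8 CPM in gun1-101 and 113.7 to 126.4 CPM in WT, and PARP1 fell by 0.52. NAC082, which relays ribosomal stress, and AT5G40460 rose by 0.51 and 1.03. Auxin genes fell in 11 of 23 members tested and rose in 2, with a median of -0.18, or 14 and 2 with raw library sizes. GH3.17, which conjugates auxin to glutamate, had 25.4, 27.8 and 28.5 CPM in gun1-101, against 62.9, 63.9 and 67.2 CPM in WT, and the transporters PIN7, PIN3 and AUX1 fell by 0.84, 0.59 and 0.55. Of 14 cytokinin genes tested 7 fell and 5 rose, with a median of -0.36, or 9 and 3 with raw library sizes. The response regulators ARR9 (-0.89), RR3 (-0.52) and ARR6 (-0.40) and the oxidase CKX4 (-1.43) were all lower. Of 15 abscisic acid and dehydration genes tested 4 rose and 5 fell, shares near the 27.7% and 29.3% of all genes tested. With raw library sizes 2 rose and 6 fell, and the 4 that rose with TMM were 2 without WT replicate 2. CBF2 rose by 4.00, with 2.19 to 3.28 CPM in gun1-101 and 0.114 to 0.253 CPM in WT, and LTI78 fell by 0.78.

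Markers of the other cell types were summed over all in the table, tested or not, on the TMM scale. These sums overlapped between genotypes for the stem cell niche, cortex and xylem, and did not for root hairs, endodermis, phloem and root cap. The TMM factors were 0.9277 to 0.9314 in gun1-101 and 1.0811 to 1.0912 in WT on spectinomycin. For sums that differ by little, such as those of phloem and root cap, the direction depends on this scaling. Of 9 stem cell niche markers tested 4 fell, among them the root meristem regulators PLT2 (-1.02) and PLT1 (-0.47), and 2 rose. Values in this list ranged from -1.02 to 0.45, with a median of -0.47. With raw library sizes 7 fell and 1 rose. The summed niche markers were 163.9 to 166.3 CPM in gun1-101 and 160.8 to 173.4 CPM in WT, and WOX5, the quiescent centre marker, did not pass (0.65 CPM in gun1-101, 1.07 CPM in WT). Root hair markers summed to 333.7 to 353.4 CPM in gun1-101 and 393.3 to 462.4 CPM in WT. Of these 10 markers 2 were higher and 3 lower, or 0 and 8 with raw library sizes. Endodermis markers summed to 254.5 to 266.2 CPM in gun1-101 and 272.0 to 284.8 CPM in WT. There 3 of 10 were lower, or 9 with raw library sizes. In both lists the share lower with TMM was near the 29.3% of all genes. Phloem markers summed to 505.6 to 523.7 CPM in gun1-101 and 473.4 to 487.4 CPM in WT, with 2 of 9 higher and 1 lower, or 0 and 3 with raw library sizes. Xylem markers summed to 94.5 to 100.3 CPM in gun1-101 and 95.4 to 98.1 CPM in WT, and root cap markers to 15.98 to 17.04 CPM in gun1-101 and 14.65 to 15.5 CPM in WT. Cortex markers were near their floor, at 2.26 to 4.13 CPM in gun1-101 and 3.28 to 4.17 CPM in WT. The part that cell type makeup has in the lower cell division genes was not tested.

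The same genotypes on control medium share no library with the spectinomycin comparison. There 7921 genes passed (40.5%), 4826 higher (24.7%) and 3095 lower (15.8%) in gun1-101; with raw library sizes 2898 were higher and 8383 lower. At least 2-fold rises numbered 1062 (5.43%) and at least 2-fold falls 167 (0.853%). Of the 1671 genes at least 2-fold higher on spectinomycin, 1523 (91.1%) were also higher on control medium. Their median level was 29.4 CPM in gun1-101 and 6.17 CPM in WT on spectinomycin, and 35.1 CPM in gun1-101 and 15.7 CPM in WT on control medium. These genes were chosen by their difference on spectinomycin, so the medians on that medium are a description. Of the 414 genes at least 2-fold lower, 201 (48.6%) were also lower on control medium. The 902 genes at least 2-fold higher on both media make up 54% of the spectinomycin list and 84.9% of the control list.

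The difference between genotypes itself differed between the media for 4801 genes (24.5%), 2681 of them higher (13.7%) and 2120 lower (10.8%) on spectinomycin than on control medium. It was at least 2-fold higher for 713 genes (3.64%) and at least 2-fold lower for 179 (0.915%). The camalexin list had 13 of 13 members higher in gun1-101 on control medium too, with a smaller median of 1.86, and 11 of 13 differed between media. CYP71A12 had 2006, 2142 and 2064 CPM in gun1-101 on control medium, against 537.8, 604.4 and 522.7 CPM in WT, where the levels on spectinomycin had been 1910 to 1965 CPM in gun1-101 and 4.86 to 5.00 CPM in WT. PER4, CYP81F2 and GSTF6 had the same pattern: on control medium they averaged 1148, 1223 and 6412 CPM in gun1-101 and 285.2, 403.6 and 2630 CPM in WT. For F6'H1 the means on control medium were 1092 CPM in gun1-101 and 611.2 CPM in WT, a log2 fold change of 0.84, against 5.56 on spectinomycin.

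**Figure D5:**
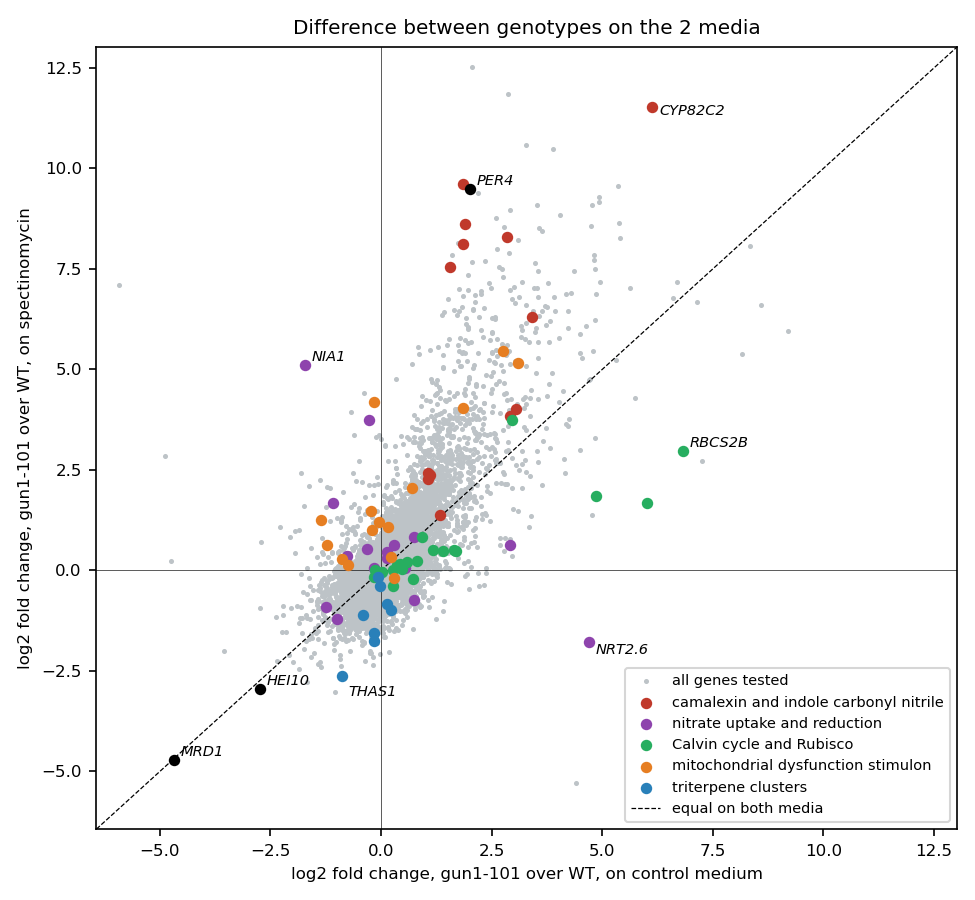
Log2 fold change, gun1-101 over WT, on spectinomycin (vertical axis) against that on control medium (horizontal axis), for all 19567 genes (grey), members of 5 lists (colours) and PER4, HEI10 and MRD1 (black); the dashed line marks equal values. Camalexin genes lie above the line, RBCS2B and NRT2.6 below it, and MRD1 on it; NIA1 was at 5.11 on spectinomycin and -1.71 on control medium.

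Some genes differed between genotypes in opposite directions on the media. NIA1 had 20.4, 18.4 and 17.3 CPM in gun1-101 on control medium, against 68.3, 48.7 and 67.7 CPM in WT, a log2 fold change of -1.71, opposite to its rise on spectinomycin. NIA2 was at -0.28 and HRS1 at -1.09 on control medium. NRT2.6, a nitrate transporter gene, was the reverse: it fell by 1.79 on spectinomycin and rose by 4.71 on control medium, where it had 18.7, 16.3 and 19.8 CPM in gun1-101 and 0.733, 0.401 and 0.998 CPM in WT. NRT1.8, which unloads nitrate from the xylem, rose on both media, by 0.63 on spectinomycin and 2.92 on control medium. Of the mitochondrial stimulon 5 members rose and 3 fell on control medium, 13 of 15 had a higher difference on spectinomycin, and CYP81D8 was at -0.15 on control medium (edgeR, adjusted p = 0.0984). The 3 that fell were 8 without WT control replicate 2, a library that stood apart from the other 2 of its group.

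Photosynthesis genes differed more between genotypes on control medium than on spectinomycin. On control medium 38 of 51 light-reaction genes rose and none fell, with a median of 0.56, and 14 of 20 Calvin cycle genes rose and 2 fell, with a median of 0.76, which was 1.17 without WT control replicate 2. The difference between genotypes was lower on spectinomycin for 24 light-reaction genes, a number that was 14 when replicate 1 of the WT control group was left out and 43 when its replicate 2 was. It was lower for 9 Calvin cycle genes, or 16 when that replicate 2 was left out. RBCS3B had 15.1, 15.7 and 11.4 CPM in gun1-101 on control medium, against 0.122, 0.860 and 0.428 CPM in WT. RBCS1B averaged 8.60 CPM in gun1-101 and 0.122 CPM in WT on control medium. RBCS2B had 211 reads in gun1-101 and 2 in WT there, a ratio of 134 (95% counting interval 36.6 to 1114). These 3 genes were thus higher in gun1-101 on both media, with the lowest levels in WT on control medium.

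Triterpene genes fell more widely on spectinomycin than on control medium. There 2 of 8 triterpene genes fell and none rose, with a median of -0.11, or 3 fell and 2 rose, with a median of -0.05, without WT control replicate 1, and 7 of 8 had a lower difference on spectinomycin. THAS1 had 16.6, 16.4 and 17.4 CPM in gun1-101 on control medium, against 29.1, 34.6 and 29.1 CPM in WT, so its level differed between media mainly in WT. Of 14 cytokinin genes 7 rose and none fell on control medium, with a median of 0.55, and 7 had a lower difference on spectinomycin. Cell division genes were lower on both media: on control medium 13 of 23 genes of the G2 and M phases fell and 2 rose, and 11 of 22 genes of S phase fell and none rose. The difference between genotypes in these 2 lists differed between media for 3 and 3 members.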

How the data were processed

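The deposited values are expected counts per gene, estimated by the authors with RSEM 1.3.1, per the submitters' processing notes; the aligner, genome build, annotation and use of strand are not given in the sources used here. Of the values, 98.3% were whole, and all were rounded. Another 104 value columns were not used. All 24 libraries entered 1 edgeR fit (edgeR 4.0.16, R 4.3.3, limma 3.58.1; TMM scaling, quasi-likelihood F test, robust), with 1 mean for each of 8 groups and 16 residual degrees of freedom. A filter on low counts (minimum 10, total 15) kept 19567 of 24497 genes. Genes were called at a Benjamini-Hochberg adjusted p of 0.05. CPM were TMM-scaled, and 95% intervals of ratios are exact binomial intervals on summed reads, scaled by library size. The procedure was tested on simulated data in which few genes were changed, as many up as down. In the real data 57% of genes were called, so that test does not bear on the scaling.

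Named were GUN1 and NAC103, the 15 largest rises and falls among called genes with a symbol, at least 1 CPM and no overlap, for each of 31 pathway lists the called members of smallest p, at most 4, the 5 largest differences between media in each direction, and IDs without a symbol among the 5 largest changes. Of the 156 genes named by these rules, 155 did not overlap between genotypes on spectinomycin. The rules favour such genes, so lack of overlap is not separate support for a difference. Other list members in the text were chosen after their values were seen. Comparisons and lists (with 8 marker lists, 723 genes, 666 tested) were chosen with earlier results of these data known. Symbols and neighbours come from the TAIR10.1 annotation of RefSeq, which held 24424 of the IDs. A planned description of promoter motifs was not run. Alternatives were RLE size factors (the scaling of DESeq2), raw library sizes, no filter, a replicate block, only the groups compared, DESeq2 1.42.0 and leaving out each library. Replicate numbers did not pair the samples: same-numbered libraries of the genotypes had correlations of deviations from -0.032 to 0.024.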

Additional observations from a re-analysis of the deposited data

Results flagged for a closer look

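The difference between gun1-101 and WT was tested for a difference between the media, and 4801 genes passed (edgeR quasi-likelihood test, adjusted p of 0.05), 24.5% of those tested. The 5 named genes with the largest positive values, higher on spectinomycin than on control medium, were CYP71A18 (7.748 on the log2 scale), PER4 (7.492), NIA1 (6.822), CYP71A12 (6.71) and CYP81F2 (6.249). In CYP71A18 the 3 WT libraries on spectinomycin held 3 reads together, so its fitted value depends on how low counts are handled. The 5 with the largest negative values were the nitrate transporter genes NRT2.6 (-6.496) and NRT1.8 (-2.285) and the Rubisco small subunit genes RBCS1B (-4.33), RBCS2B (-3.836) and RBCS3B (-2.992). In RBCS2B the 3 WT libraries on control medium held 2 reads together. In NIA1 and NRT2.6 the genotypes differed in opposite directions on the media; in the other 8 genes gun1-101 was higher on both.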

How the results depend on the processing

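On spectinomycin 11152 genes were called, 10048 with DESeq2, 10934 with RLE size factors and 14139 with raw library sizes, and 10141 to 10438 when a library was left out. On control medium the count was 7921, with a range of 6614 to 11281, and for the difference between media 4801, with a range of 4141 to 5439; both rose when WT control replicate 2 was left out, to 8147 and 5439. All 42 alternative counts were within 1.5 times their main count. With a replicate block the 3 counts were 11173, 7937 and 4869, and no named gene changed its side of the threshold. GUN1 stayed lower under every setting, from -0.81 to -1.07. NAC103, which did not pass under any setting, was at 0.034 (edgeR, adjusted p = 0.958) without gun1-101 spectinomycin replicate 2 and ranged from -0.56 to 0.034 when a library was left out; it had no value with only the groups compared. AT3G13120 lost its call with raw library sizes (0.076; edgeR, adjusted p = 0.267). The other 2049 alternative values of the named genes kept their direction and side of the threshold. Most of these genes were chosen as strong calls, so their stability does not measure that of all calls. With raw library sizes 9183 of the 11152 genes called on spectinomycin were called again, and 5995 of the 7921 on control medium. Raw library sizes moved the median of all genes to -0.28 on spectinomycin and -0.18 on control medium. On spectinomycin they lowered list medians both near 0 and far from it, such as the camalexin median from 6.30 to 6.07. Of all list medians on spectinomycin under alternatives, 72 moved by more than the spread between libraries and 396 did not. The 72 came from 38 of the 39 lists. Levels below about 1 CPM rest on few reads.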

Other observations

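Whole gene families, some members of which are in the lists above, were chosen after the data were seen. Of 59 WRKY transcription factor genes tested 42 were higher and 6 lower in gun1-101 than in WT on spectinomycin, with a median log2 fold change of 0.83; with raw library sizes 37 were higher and 13 lower. WRKY40, a repressor induced in immunity, rose by 3.31, and WRKY57 fell by 0.59. All 5 genes tested of the respiratory burst oxidases (RBOH), which make superoxide at the cell surface, rose, 4 of them with raw library sizes. RBOHD averaged 250.7 CPM in gun1-101 and 34.9 CPM in WT (n = 3 each), and RBOHA rose by 2.75.

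Of the 7 PROPEP genes, precursors of peptides released on wounding, 3 rose and none fell, while 4 fell with raw library sizes. PROPEP3 averaged 81.7 CPM in gun1-101 and 0.710 CPM in WT, and PROPEP2 and PROPEP1 rose by 5.36 and 3.17. Of 10 wall-associated kinase genes tested 7 rose and none fell, also with raw library sizes; WAKL10 averaged 57.7 CPM in gun1-101 and 1.38 CPM in WT. Alpha-expansins, which loosen walls of growing cells, went the other way: 10 of 15 tested fell and none rose, with a median of -0.52, and 14 fell with raw library sizes. EXPA9 averaged 62.9 CPM in gun1-101 and 103.2 CPM in WT, and EXPA15 averaged 3.02 CPM in gun1-101 and 8.05 CPM in WT. Of 19 MAP kinase genes 9 rose and 3 fell, or 5 and 9 with raw library sizes. MPK3 averaged 251.7 CPM in gun1-101 and 81.1 CPM in WT.

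The other genotypes on spectinomycin give a scale for these levels. CYP71A12 averaged 138.3 CPM in nac103-11 and 2.99 CPM in NAC103-OX, and GSTF6 averaged 1110 CPM in nac103-11 and 66.1 CPM in NAC103-OX. F6'H1 averaged 171.2 CPM in nac103-11 and 6.22 CPM in NAC103-OX. For these 3 genes gun1-101 was above nac103-11, with WT between nac103-11 and NAC103-OX. CYP81D8 averaged 4.28 CPM in nac103-11 and 3.13 CPM in NAC103-OX, near the level of WT. No difference of these genes between gun1-101 and the NAC103 genotypes is given a test here.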
